A study of Mus musculus with 34 samples.

Results

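The 4 libraries of hepatocyte-like cells, out of 10 libraries in the hepatic table and 34 in the study, fell into 2 pairs that differed widely in hepatocyte gene expression. Libraries 1 and 2 held far more RNA of albumin (*Alb*), of the drug-metabolizing enzyme gene *Cyp3a11* and of most secreted liver proteins than libraries 3 and 4. Libraries 3 and 4 held more RNA of genes of the extraembryonic endoderm, the cell state from which all 4 had been derived. The pairs were chosen on measured values of these same libraries, chiefly *Alb* and *Cyp3a11*, so every difference between them is given as a description and none was tested. Gene expression was measured by sequencing of poly-A RNA, and values are FPKM, sequenced fragments corrected for the length of the gene and the size of the library.

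In the study, chemicals were used to bring mouse embryonic fibroblasts to a state like that of extraembryonic endoderm (XEN-like), and hepatocyte-like cells were then made from it. The hepatic table also held 2 libraries each of hepatocytes, hepatic tissue and embryonic fibroblasts. All 10 libraries carried the same strain label, Mapttm2(EGFP)Klt/J, a mouse line with an EGFP reporter in the *Mapt* (tau) locus, so the reporter allele was shared by every group. The labels gave the 4 hepatocyte-like libraries identical descriptions, and gave no age, time, dose, passage or culture that could tell libraries 1 and 2 from 3 and 4, nor whether any libraries came from the same culture or animal. P-values in the comparisons of labelled groups therefore measure only the spread between libraries, which may be technical.

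Hepatocytes make most plasma proteins, break down amino acids into urea, keep up blood glucose, and oxidize and conjugate drugs. The gene sets for these tasks are switched on by a network of transcription factors that includes HNF4A, FOXA and C/EBP proteins, and many of them come on only late in liver development or after birth. Members of the CYP3A family, induced through the nuclear receptor PXR (*Nr1i2*), are commonly used as signs of mature hepatocyte function, whereas alpha-fetoprotein (*Afp*) marks the fetal liver and the yolk sac endoderm.

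The promoters of *Cyp3a11* and *Cyp3a25*, 2 genes on chromosome 5 among those that set the pairs apart, are shown because their known regulators were measured in the same libraries. Each window runs from 250 bases before to 50 bases after the annotated start, 5′ to 3′ on the strand of the gene, and is taken from RefSeq on GRCm38.p6. Capitals mark matches on either strand to TGTTTAC (the core of FOXA sites) or AGGTCA (the unit that nuclear receptors bind), 2 motifs whose letters do not overlap here. The *Cyp3a11* window lies on the minus strand at chr5:145879805-145880104 and the *Cyp3a25* window on the minus strand at chr5:146009569-146009868.
Cyp3a11: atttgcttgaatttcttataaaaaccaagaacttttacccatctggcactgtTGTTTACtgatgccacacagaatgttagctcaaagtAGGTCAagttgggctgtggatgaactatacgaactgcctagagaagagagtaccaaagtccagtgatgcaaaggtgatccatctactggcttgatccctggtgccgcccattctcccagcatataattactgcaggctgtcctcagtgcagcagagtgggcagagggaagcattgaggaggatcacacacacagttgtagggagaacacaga
Cyp3a25: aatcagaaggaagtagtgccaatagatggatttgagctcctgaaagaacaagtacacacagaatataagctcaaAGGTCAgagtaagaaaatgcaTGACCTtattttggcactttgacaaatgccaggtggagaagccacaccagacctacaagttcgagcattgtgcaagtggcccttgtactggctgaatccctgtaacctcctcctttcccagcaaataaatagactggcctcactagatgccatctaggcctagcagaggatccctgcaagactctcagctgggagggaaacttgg

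The *Cyp3a11* window held TGTTTAC at position -198 from the start and AGGTCA at -162, and the *Cyp3a25* window held AGGTCA at -176 and its reverse complement at -155. Such short motifs are common: TGTTTAC occurred in 3.65% and AGGTCA in 16.3% of the 32851 promoters in the table. Among the 929 promoters of genes higher in libraries 1 and 2 the shares were 3.88% and 17.1% in the same order. They were 2.64% and 10.5% among the 1137 promoters of genes higher in libraries 3 and 4, and 2.67% and 13% among the 11288 promoters of all genes that passed the filter. A match is a description of the sequence and not a bound site.

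Total read counts were not given. The apparent depth, estimated from the lowest values of single-exon genes and possibly off by a wide margin, lay between 6200000 and 10900000 fragments in the 10 libraries. The 5th percentile of the values above 0 was 0.131 and 0.255 FPKM in libraries 1 and 2, 0.0456 and 0.0599 in libraries 3 and 4, and 0.0478 to 0.0564 in the other 6. Libraries 1 and 2 had 15930 and 14555 genes above 0, against 20217 and 18241 in libraries 3 and 4 and 15309 to 20100 in the other 6, so that library 1 was within the range of the others by this count. The mitochondrial share of all FPKM was 5.98%, 4.49%, 10.7% and 4.93% in libraries 1 to 4. Libraries 3 and 4 were sequenced on flow cell HH2TTALXX with the fibroblasts, library 1 on HH2H2ALXX, library 2 on HCNYKALXX, and hepatocytes and tissue on HJM3YALXX. Flow cell and pair thus coincide and cannot be told apart, and no hepatocyte-like library shared a flow cell with the hepatocytes.

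The hepatocyte libraries that serve as the yardstick were themselves unlike. *Alb* was listed at 0 in hepatocytes 1 and tissue 2, against 51325 FPKM in hepatocytes 2 and 44788 in tissue 1. Other plasma protein genes were high in both hepatocyte libraries, with *Trf* at 17342 and 15339 FPKM and *Apoa2* at 25308 and 29140. The 0 of *Alb* should thus not be read as absent expression, and whether it is a missing value was not tested. *Xist*, the RNA of the inactive X chromosome, stood at 40.7 FPKM in hepatocytes 1 and 0.0243 in hepatocytes 2, while the Y-linked *Ddx3y* stood at 0 and 10.7. The Kupffer cell gene *Clec4f* reached 77.5 and 4.6 FPKM, and *C1qa* 102 and 3.21, in hepatocytes 1 and 2, and both were listed at 0 in all 4 hepatocyte-like libraries. Across genes, hepatocytes 1 correlated with tissue 2 (r = 0.981) more closely than with hepatocytes 2 (r = 0.923). The male-linked *Ddx3y* lay between 10.5 and 18.7 FPKM in all 4 hepatocyte-like libraries and between 12.1 and 14.4 in the fibroblasts. *Xist* was 6.07, 0.373, 0.0154 and 0.0194 FPKM in libraries 1 to 4. Both fibroblast libraries also held *Xist*, at 11.9 FPKM each.

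Of 48278 genes in the table, 15657 passed a filter of 1 FPKM in 2 or more libraries and entered all comparisons. A gene was called separated when the means of the pairs differed by at least 1 on the scale of log2(FPKM + 1) and no library of the lower pair reached a library of the higher pair. In all, 2934 genes were separated, 1240 (7.92%) higher in libraries 1 and 2 and 1694 (10.8%) higher in libraries 3 and 4. These 2 shares are the background for the counts that follow. Just inside the threshold lay the ribosomal protein gene *Rps2*, at 1042 and 1473 FPKM against 612 and 626. *Mthfd1*, a gene of folate metabolism, lay just outside with 16.9 and 20.6 FPKM against 13.7 and 5.58. The median difference over all genes was -0.04 log2 units, or -0.09 after the libraries were scaled to each other by median ratios.

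More of the genes higher in libraries 3 and 4 were near 0 in the other pair. Of the 1694 genes higher there, 556 lay below 1 FPKM in both libraries 1 and 2, and 209 were listed at 0 in both. Of the 1240 genes higher in libraries 1 and 2, 183 lay below 1 FPKM in both libraries 3 and 4, and 14 were at 0 in both. Among the 7969 genes with a mean of at least 10 FPKM in 1 pair, 892 (11.2%) were higher in libraries 1 and 2 and 779 (9.78%) in libraries 3 and 4, so that the order of the 2 counts turned round. The part that depth plays in the low genes was not tested.

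**Figure D1:**
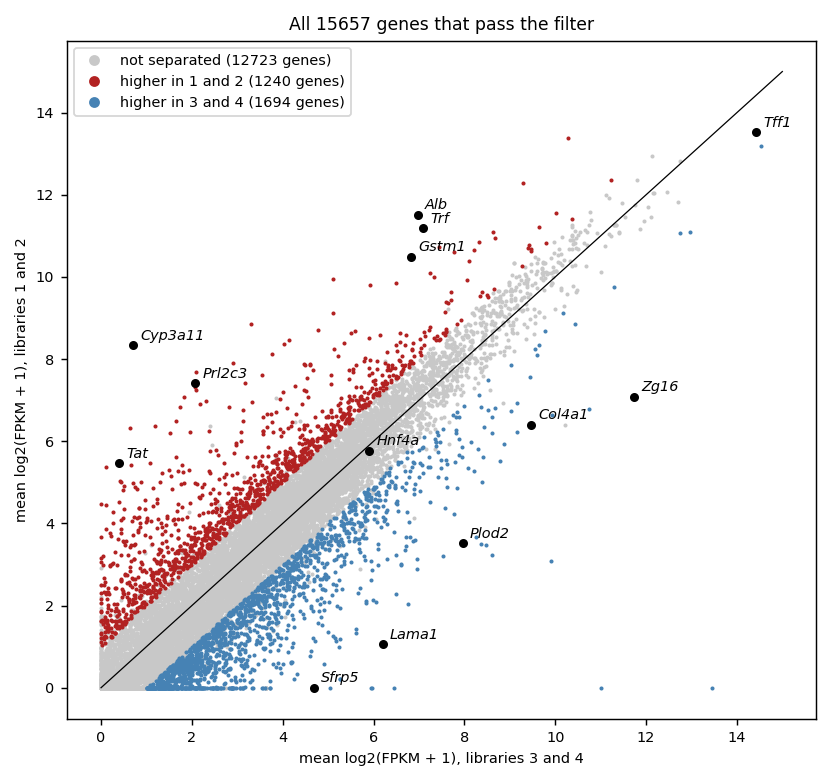
Mean log2(FPKM + 1) of hepatocyte-like libraries 3 and 4 (x axis) against that of libraries 1 and 2 (y axis), 1 point for each of the 15657 genes, with separated genes coloured by direction. The 1240 genes above the diagonal band include *Alb* and *Cyp3a11*, and the 1694 below it include *Lama1* and *Zg16*.

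Within the pairs the libraries were closer than across them. The correlation across genes was 0.935 between libraries 1 and 2, with 2877 genes apart by at least 1 log2 unit, and 0.939 between libraries 3 and 4, with 2266 such genes. Across the pairs it was 0.904 and 0.902 for library 1 and 0.867 and 0.872 for library 2, with 3493 to 4893 genes apart. Library 1 therefore lay between library 2 and the other pair. With the hepatocytes the correlation was 0.615 to 0.635 for libraries 1 and 2 and 0.539 to 0.550 for libraries 3 and 4. With the fibroblasts it was higher for all 4, at 0.641 to 0.669 for libraries 1 and 2 and 0.659 to 0.714 for libraries 3 and 4. These values are descriptions over genes, which are not independent replicates, and the genes and the table are shared by all of them.

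*Alb*, the main protein of blood plasma, stood at 1899 and 4514 FPKM in libraries 1 and 2, at 58.5 and 266 in libraries 3 and 4, and at 1.26 and 2.17 in the fibroblasts. All 4 hepatocyte-like libraries lay above both fibroblast libraries and below the hepatocyte library in which the gene was measured above 0. *Cyp3a11*, a major drug-oxidizing enzyme of mouse liver, was at 169 and 613 FPKM in libraries 1 and 2 and at 1.03 and 0.326 in libraries 3 and 4. It was listed at 0 in both fibroblast libraries and reached 883 and 1696 FPKM in the hepatocytes. Library 2 thus came closest to the hepatocytes, while libraries 3 and 4 held almost no *Cyp3a11*. The means of the pairs differed by 4.54 log2 units for *Alb* and by 7.62 for *Cyp3a11*, the largest among the 10 genes named by rule on that side. *Cyp3a25*, another member of the CYP3A family, followed with 53.3 and 115 FPKM against 0.473 and 0.650, beside 231 and 214 in the hepatocytes. Because the 4 libraries of the group spread so widely, the limma comparison of all 4 with the hepatocytes did not call *Cyp3a11* (log2 difference -5.73, SE 2.23, adjusted p = 0.0551) or *Cyp3a25* (-4.33, SE 1.65, adjusted p = 0.0522). In these bulk samples fewer cells of a type and less RNA per cell cannot be told apart.

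**Figure D2:**
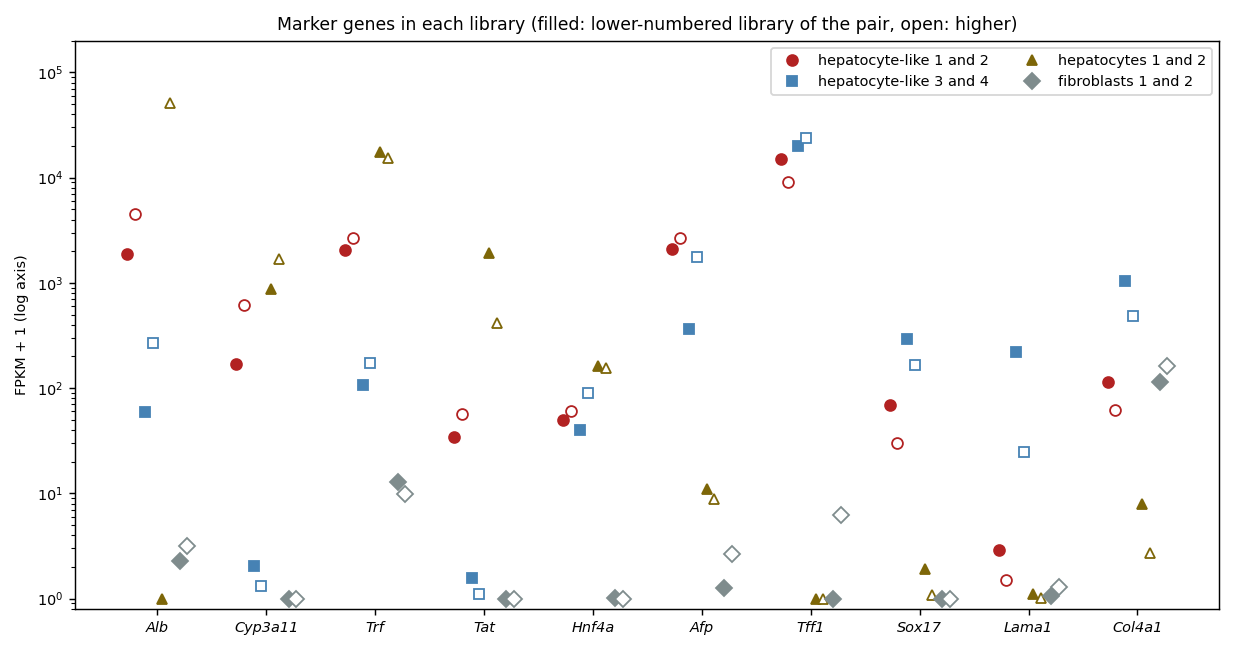
FPKM + 1 (log axis) of *Alb*, *Cyp3a11* and 8 other genes in the hepatocyte-like, hepatocyte and fibroblast libraries, 1 point per library, filled for the first and open for the other library of each pair. For *Cyp3a11* libraries 1 and 2 lie at 169 and 613 FPKM, below the hepatocytes, and libraries 3 and 4 at 1.03 and 0.326, whereas *Hnf4a* lies between 38.6 and 89.8 FPKM in all 4.

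Plasma proteins made the clearest group. Of 33 listed genes, 26 were higher in libraries 1 and 2 and none in libraries 3 and 4, against backgrounds of 7.92% and 10.8%. Their median difference was 2.54 log2 units, and their FPKM summed to 12903 and 14966 in libraries 1 and 2, 2193 and 3304 in libraries 3 and 4, 149919 and 177509 in the hepatocytes and 336 and 169 in the fibroblasts. Transferrin (*Trf*), which carries iron, stood at 2030 and 2691 FPKM against 106 and 173, with 17342 and 15339 in the hepatocytes. *Ambp*, the precursor of a protease inhibitor, was at 170 and 448 against 7.31 and 21.2. The vitamin D carrier *Gc* was at 104 and 276 FPKM against 7.06 and 9.18, and *Apoh*, beta-2-glycoprotein, at 140 and 268 against 8.03 and 14.2. In each of these 4 genes the lower library of the first pair exceeded the higher library of the second pair many times over.

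The 7 plasma protein genes that were not separated included 3 of the 4 apolipoproteins *Apoa1*, *Apoa2*, *Apoc3* and *Apob*. *Apob*, the backbone of very-low-density lipoprotein, was separated, at 7.05 and 18.8 FPKM against 4.46 and 4.55. *Apoa1*, the structural protein of high-density lipoprotein, stood at 4928, 1242, 1154 and 1503 FPKM in libraries 1 to 4, so that only library 1 was high. *Apoc3* was at 137, 131, 72.2 and 205, and *Apoa2* at 25.9, 79.3, 67.4 and 114, against 25308 and 29140 FPKM of *Apoa2* in the hepatocytes. The thyroxine carrier *Ttr* was at 697, 437, 207 and 406 FPKM, which on unscaled values overlaps the 663 of hepatocytes 1 but not the 4825 of hepatocytes 2. *Serpina3k* lay between 0.0630 and 0.250 FPKM and *Mup3* at 0 in all 4, beside 846 to 3224 and 1261 to 9058 FPKM in the hepatocytes.

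Over all 4 libraries, 30 of the 33 plasma protein genes were lower than in the hepatocytes and 21 were higher than in the fibroblasts by limma on log2(FPKM + 1), where a gene was called if its Benjamini-Hochberg adjusted p was below 0.05 and its difference was 1 log2 unit or more. Over all genes the call was lower than hepatocytes for 1181 (7.54%) and higher for 6468 (41.3%), and higher than fibroblasts for 1779 (11.4%) and lower for 2344 (15.0%). *Trf* fell by 4.85 log2 units against the hepatocytes (SE 1.20, adjusted p = 0.00824) and rose by 5.66 against the fibroblasts (SE 1.20, adjusted p = 0.00681). With *Alb* at 0 in hepatocytes 1, the difference of *Alb* was 1.42 (SE 4.65, adjusted p = 0.818). Without hepatocytes 1 the count of lower plasma protein genes was 26. Of the genes of the acute-phase response, 6 of 15 were higher in libraries 1 and 2 and 1 in libraries 3 and 4. Haptoglobin (*Hp*) stood at 745 and 1083 FPKM against 52.1 and 68.2, while *Saa3*, which fibroblasts also express, was at 358 and 587 against 1586 and 1193.

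Drug metabolism was split between members. Of 32 cytochrome P450 genes, 12 were higher in libraries 1 and 2 and 1 in libraries 3 and 4, with a median difference of 0.19 log2 units. *Cyp2a5*, which oxidizes coumarin in mice, stood at 235 and 459 FPKM against 69.2 and 2.74, with library 3 between its partner and the other pair. *Cyp2b10*, a target of the nuclear receptor CAR, was at 19.9 and 36.4 against 0.326 and 0.478, and in libraries 1 and 2 above both hepatocyte libraries (2.75 and 4.65). *Cyp4f14*, of the fatty acid hydroxylases, was the gene higher in libraries 3 and 4, at 0.860, 0, 3.60 and 9.88 FPKM. *Cyp2e1*, among the most abundant P450 genes of liver, was listed at 0 in all 4 libraries against 1700 and 2582 in the hepatocytes. *Cyp7a1*, the rate-limiting enzyme of bile acid synthesis, was above 0 only in library 3, at 0.115 FPKM. In all, 13 of the 32 genes lay below 1 FPKM in all 4 libraries. *Cyp27a1*, a sterol hydroxylase, was not separated, with 44.4, 56.8, 60.7 and 21.0 FPKM, and neither was *Cyp3a13* (18.8, 6.93, 17.2 and 30.4 FPKM). On unscaled values the 2 hepatocyte libraries (17.4 and 16.4 FPKM of *Cyp3a13*) lay within the range of the 4. Against the hepatocytes 20 of the 32 fell and 2 rose.

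Genes of conjugation and flavin oxidation were higher in libraries 1 and 2 in 17 of 33 cases and in libraries 3 and 4 in none. The sulfotransferase gene *Sult1a1* stood at 162 and 256 FPKM against 5.90 and 1.65, close to the 301 and 225 of the hepatocytes. Among the glutathione transferases, *Gsta3* was at 514 and 416 against 6.10 and 12.6, and *Gstm3* at 158 and 162 against 2.40 and 4.20. *Gstm3* in libraries 1 and 2 exceeded both hepatocyte libraries, at 4.20 and 18.5 FPKM. *Aldh1a1*, a retinal dehydrogenase, was at 287 and 602 against 53.2 and 12.9. Other transferases did not follow the pairs: *Gsta1* was at 633, 785, 334 and 808 FPKM and *Gsta4* at 1053, 646, 762 and 966, all above the hepatocytes at up to 9.71 and 75.4. These were the 2 members of the list that rose against the hepatocytes (*Gsta1* by 7.31 log2 units, SE 0.95, adjusted p = 0.000274), whereas 19 fell. Members of these families are close in sequence, and reads may have been shared between them.

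Of 17 genes of bile acid and organic ion transport, 5 were higher in libraries 1 and 2 and 1 in libraries 3 and 4, and 14 of the 17 fell against the hepatocytes. *Abcb4*, which moves phospholipid into bile, stood at 7.88 and 22.8 FPKM against 0.118 and 0.0447. *Abcc2*, the canalicular export pump for conjugates, was at 6.92 and 13.7 against 0.215 and 0.992. *Atp8b1*, a lipid flippase, went the other way with 7.59 and 6.18 against 15.7 and 31.4. The basolateral pump *Abcc3*, at 88.3, 56.4, 30.4 and 58.8 FPKM, was not separated, and the uptake carrier *Slco1a1* was listed at 0 in all 4.

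Amino acid breakdown and the urea cycle were low in all 4 libraries. The FPKM of the 27 genes summed to 567 and 622 in libraries 1 and 2 and to 155 and 130 in libraries 3 and 4, against 16004 and 15786 in the hepatocytes, and 25 of the 27 fell by limma. Between the pairs 9 were higher in libraries 1 and 2 and 1 in libraries 3 and 4. *Mat1a*, the liver enzyme that makes S-adenosylmethionine, stood at 77.1 and 88.1 FPKM against 2.38 and 0.538. Tyrosine aminotransferase (*Tat*), a gene that comes on around birth, was at 33.1 and 55.8 against 0.552 and 0.107, and *Hpd*, which acts next in tyrosine breakdown, at 21.4 and 38.2 against 0.471 and 0.927. Arginase (*Arg1*), the last step of the urea cycle, was at 55.0 and 95.0 against 2.14 and 1.58, and *Cps1*, its entry step, at 24 and 19.2 against 1.85 and 0.941. *Arg1* in libraries 3 and 4 lay below the fibroblasts, at 45.6 and 195 FPKM. *Asl*, another urea cycle enzyme, was not separated (39.9, 66.1, 26.5 and 29.4 FPKM). Libraries 1 and 2 still lay above libraries 3 and 4, by 0.86 log2 units.

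Of 14 genes of glucose and fructose metabolism, 4 were higher in libraries 1 and 2 and 3 in libraries 3 and 4. The key enzymes of glucose release, *Pck1* (30.4 and 57.5 FPKM against 0.315 and 0.920) and *G6pc* (28.8 and 29.4 against 0.292 and 0.578), were on the side of libraries 1 and 2. *G6pc* was at 324 and 13.9 FPKM in the 2 hepatocyte libraries, so that libraries 1 and 2 lay between them on unscaled values. *Fbp1*, which acts between these enzymes, was at 0.256, 0, 0.295 and 0.186 FPKM, and the liver glycogen synthase *Gys2* was listed at 0. *Igfbp1* was at 71.0 and 367 FPKM against 11 and 29.8, whereas *Igfbp2*, a binding protein of the same family, was at 17.2 and 7.07 against 156 and 91.5. The pairs thus differed in opposite directions for the 2 binding proteins.

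In fatty acid oxidation and ketone formation 5 of 20 genes were higher in libraries 1 and 2 and none in libraries 3 and 4. The fatty acid carrier *Fabp1* stood at 91.0 and 83.9 FPKM against 13.3 and 11.9, with 5913 and 3866 in the hepatocytes. *Plin2*, which coats lipid droplets, was at 237 and 620 against 57.6 and 83.2. The mitochondrial enzyme *Acadm* was not separated (91.2, 105, 69.2 and 84.3 FPKM). Cholesterol synthesis was alike in the pairs by these counts: none of 17 genes was higher in libraries 1 and 2 and 1 was higher in libraries 3 and 4, the feedback regulator *Insig1*, at 41.5, 33.9, 157 and 556 FPKM. Against the fibroblasts 14 of the 17 rose and none fell, with 15 on flow cell HH2TTALXX alone.

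**Figure D3:**
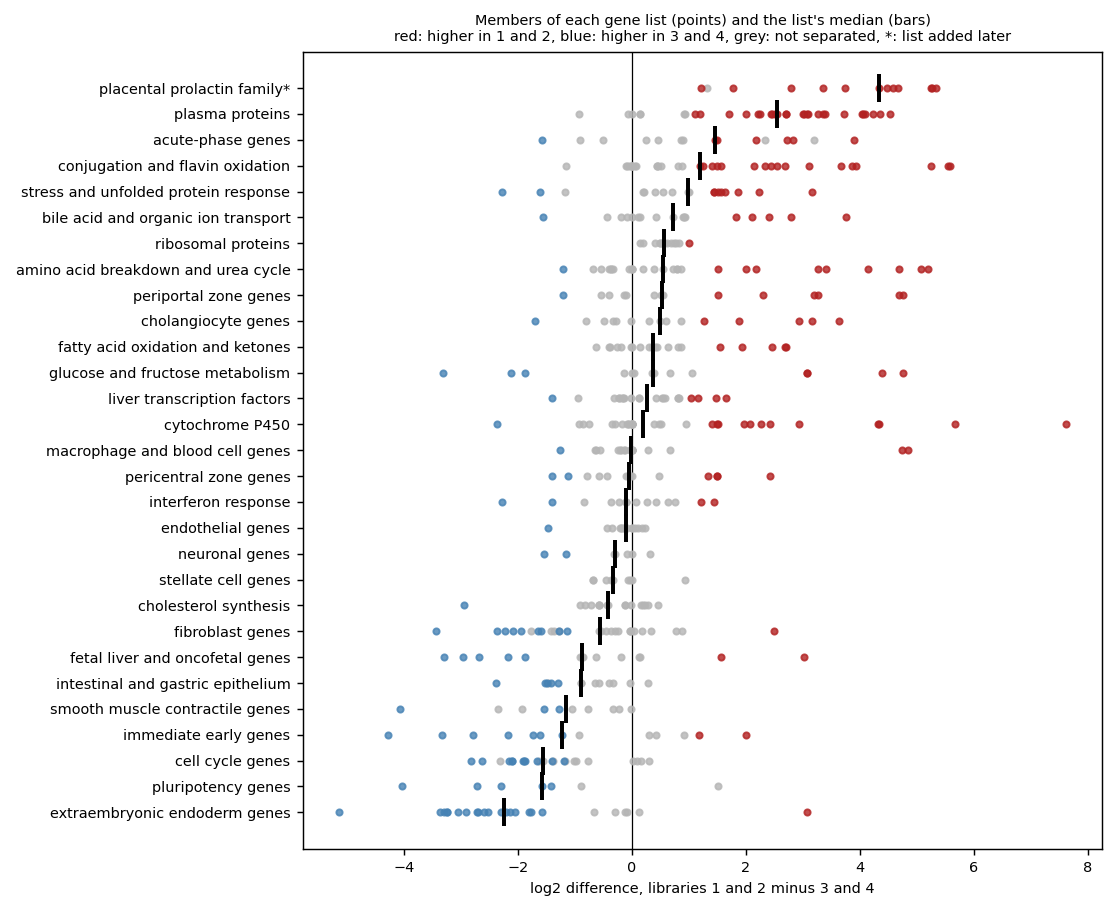
Difference of libraries 1 and 2 minus libraries 3 and 4 on the log2(FPKM + 1) scale (x axis) for each member of each gene list (points, coloured where separated) and the median of the list (bars). Plasma proteins (26 of 33 higher in libraries 1 and 2) and extraembryonic endoderm genes (18 of 24 higher in libraries 3 and 4) lie far from the median of all genes at -0.04.

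Of the transcription factors of the liver network 17 of 22 were not separated, as was true of most genes (2934 of 15657 were separated). Among the 22, 4 were higher in libraries 1 and 2 and 1 in libraries 3 and 4, against backgrounds of 7.92% and 10.8%. *Hnf4a* stood at 48.3, 59.6, 38.6 and 89.8 FPKM in libraries 1 to 4, against 163 and 155 in the hepatocytes and at most 0.0217 in the fibroblasts. Library 4, with little *Alb* and *Cyp3a11*, had the most *Hnf4a* of the 4. *Nr1i2*, the receptor that induces *Cyp3a11*, was at 6.08, 5.38, 7.60 and 6.29 FPKM against 25.6 and 21.3 in the hepatocytes. Between the pairs the difference was -0.24 log2 units for *Nr1i2*, beside 7.62 for *Cyp3a11*. The pioneer factor *Foxa2* was at 48.1, 33.7, 93.0 and 65.7 FPKM, and *Cebpa* at 55.6, 30.5, 19 and 27.4, with 114 and 405 of *Cebpa* in the hepatocytes. For both genes the pairs did not overlap, and the differences of -0.94 and 0.82 log2 units fell short of the threshold.

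Among the factors on the side of libraries 1 and 2 were *Hhex*, needed for the liver bud (11.1 and 11.4 FPKM against 2.83 and 3.01), and the oxysterol receptor gene *Nr1h3* (3.10 and 6.27 against 1.02 and 0.919). *Nr1i3*, which encodes CAR, reached at most 0.325 FPKM in the 4 libraries against 80.6 and 113 in the hepatocytes. Over the 4 libraries *Hnf4a* rose by 5.82 log2 units against the fibroblasts (SE 0.33, adjusted p = 3.6e-06) and fell by 1.48 against the hepatocytes (SE 0.33, adjusted p = 0.0045). Of the 22 factors, 15 were lower than in the hepatocytes and 8 higher than in the fibroblasts.

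To place the libraries on a scale, genes were taken that differed between hepatocytes and fibroblasts in a fit without the hepatocyte-like libraries. *Alb*, listed at 0 in hepatocytes 1, was not called in that fit and was therefore not among them. There were 1168 hepatocyte genes (7.46% of all tested) and 6618 fibroblast genes (42.3%). The position of a library is the median over these genes of its place between the fibroblast mean (0) and the hepatocyte mean (1) on the log2(FPKM + 1) scale. On the hepatocyte genes it was 0.317 and 0.348 for libraries 1 and 2 and 0.144 and 0.134 for libraries 3 and 4. On the fibroblast genes, where 1 means lost to the hepatocyte level, it was 0.30, 0.316, 0.163 and 0.222. None of the 4 came near the hepatocytes on either set. The size of both sets depended on scaling. Over all genes the median difference of hepatocytes minus fibroblasts was -0.95 log2 units, or -0.26 after median-ratio scaling. With that scaling there were 1887 hepatocyte genes and 3582 fibroblast genes, so many of the 6618 are not particular to fibroblasts by that measure. The order of the pairs was fixed in part by their choice, since *Cyp3a11* and its like are hepatocyte genes.

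**Figure D4:**
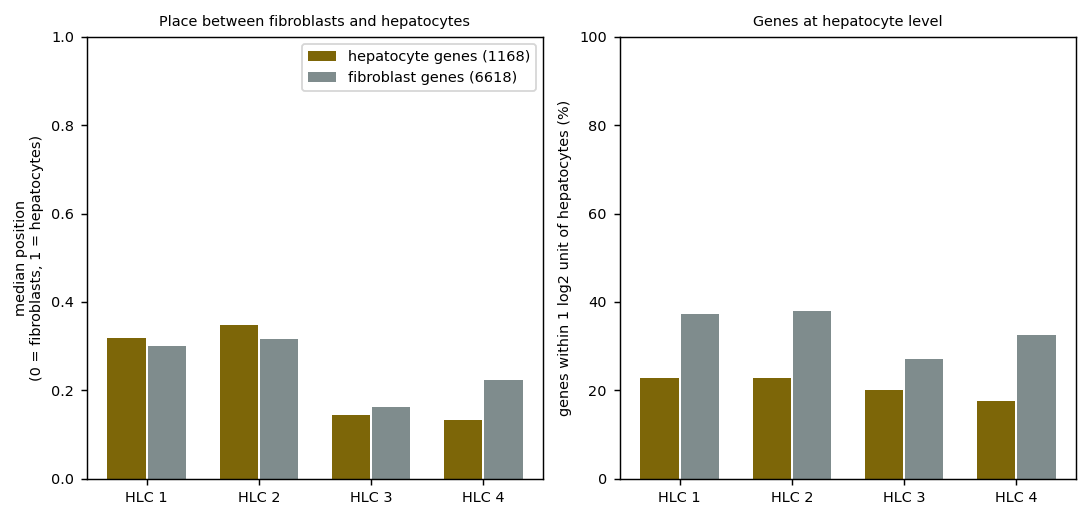
Left, median position of each hepatocyte-like library between fibroblasts (0) and hepatocytes (1) over 1168 hepatocyte genes and 6618 fibroblast genes. Right, the percentage of these genes within 1 log2 unit of the hepatocyte mean, which for hepatocyte genes is 22.8%, 22.9%, 20.1% and 17.6% in libraries 1 to 4.

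The hepatocyte genes did not shift as a block. Of the 1168, 282 (24.1%) were higher in libraries 1 and 2 and 53 (4.54%) in libraries 3 and 4, with a median difference of 0.31 log2 units. By the mean of the pair, 152 lay within 1 log2 unit of the hepatocytes in both pairs, 106 in libraries 1 and 2 alone and 75 in libraries 3 and 4 alone, while 835 did so in neither. In all 4 libraries 242 lay below 1 FPKM, and 82 of them were listed at 0. The number of hepatocyte genes at hepatocyte level was 266, 267, 235 and 205 in libraries 1 to 4, a narrower range than that of the positions. Of the 6618 fibroblast genes, 261 (3.94%) were higher in libraries 1 and 2 and 862 (13%) in libraries 3 and 4.

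Fetal and epithelial genes included many that the hepatocytes expressed at far lower levels, while the fibroblasts held several of the fetal genes. *Afp* stood at 2108 and 2647 FPKM in libraries 1 and 2 and 364 and 1744 in libraries 3 and 4, against at most 9.99 in the hepatocytes, and rose by 7.13 log2 units (SE 0.71, adjusted p = 6.01e-05). Within the fetal list 2 of 14 genes were higher in libraries 1 and 2 and 5 in libraries 3 and 4. The imprinted growth gene *H19* was at 1965 and 2446 FPKM against 5561 and 11681, the surface proteoglycan *Gpc3* at 45.0 and 17.4 against 205 and 251, and *Dlk1*, a hepatoblast surface protein, at 1.30 and 0 against 7.31 and 25.9. *Afp* and these 3 genes, all known from fetal liver, were thus higher in different pairs. *H19*, *Gpc3* and *Dlk1* were not called against the fibroblasts. There *H19* was at 1659 and 522 FPKM, *Gpc3* at 34.7 and 70.4 and *Dlk1* at 104 and 15.6. In the separately normalized table of XEN-like cells, 8 colonies had 1552 to 4681 FPKM of *H19*. They had 183 to 367 FPKM of *Gpc3* and 49.7 to 353 of *Dlk1*.

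Of 15 genes of bile duct cells, 5 were higher in libraries 1 and 2 and 1 in libraries 3 and 4, and 12 rose against the hepatocytes. *Krt7*, a duct keratin, stood at 447 and 334 FPKM against 85.8 and 126. The ectoenzyme gene *Ggt1* was at 87.3 and 62.6 against 3.75 and 13.9. *Spp1* (osteopontin) was at 84.9 and 134 against 15.1 and 3.73, far below the 2952 and 3402 FPKM of the fibroblasts. *Krt19* (2157, 1255, 776 and 1529 FPKM) and *Epcam* (259, 166, 198 and 344) were high in all 4, and *Krt19* rose by 10.28 log2 units against the hepatocytes (SE 0.37, adjusted p = 2.95e-07). These genes are shared with many simple epithelia.

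Several genes known from stomach and gut were abundant in all 4 libraries, while other members of the list were low. *Tff1*, a mucus peptide of the stomach, stood at 15200, 9133, 19952 and 23962 FPKM in libraries 1 to 4 and was listed at 0 in both hepatocyte libraries. *Gkn2* was at 5347, 2447, 6883 and 6538 and *Gkn1* at 3341, 2380, 4533 and 4354. These 3 genes together with *S100a6* and *Krt19* had the 5 largest increases over the hepatocytes, with adjusted p of 7.99e-07 for *Tff1*, 4.78e-07 for *Gkn2*, 1.82e-07 for *Gkn1* and 1.66e-06 for *S100a6*. Of the 18 genes in the table from the list of intestinal and gastric epithelium 14 passed the filter. The intestinal stem cell receptor *Lgr5* was at 0, 0, 0.0202 and 0.0254 FPKM in libraries 1 to 4, *Agr2* at 13.4, 0, 1.89 and 10.1, and the intestinal factor *Isx* at 1.84, 0, 7.81 and 1.51. Of the 14, none was higher in libraries 1 and 2 and 5 were higher in libraries 3 and 4. The homeobox factor *Cdx2* was at 14.4 and 6.53 FPKM against 22.1 and 35.3, and *Krt20* at 70.6 and 82.2 against 104 and 473. *Zg16*, a lectin of goblet cells that was on no list, was at 250 and 72.0 against 6200 and 1874. *Guca2a*, the hormone guanylin of the gut, was at 16.9 and 3.80 against 132 and 255, and the carbonic anhydrase gene *Car4* at 3.43 and 2.75 against 144 and 79.8. The 8 XEN-like colonies had 5.99 to 88.0 FPKM of *Cdx2* and 117 to 751 of *Car4*, though levels were not scaled between the tables. In the colonies *Zg16*, *Krt20* and *Tff1* reached at most 2.34, 0.217 and 1.32 FPKM, and *Guca2a* and *Gkn2* were listed at 0.

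Extraembryonic endoderm genes were the counterpart of the plasma proteins. Of 24, 18 were higher in libraries 3 and 4, against the background of 10.8%, and 1 was higher in libraries 1 and 2, with a median difference of -2.25 log2 units. The endoderm factor *Sox17* stood at 67.4 and 28.9 FPKM in libraries 1 and 2 and 295 and 166 in libraries 3 and 4. *Gata4* was at 26.2 and 18.7 against 148 and 154, and *Gata6* at 16.6 and 7.76 against 54.2 and 58.3. These 3 factors exceeded both fibroblast libraries in all 4 libraries. *Gata4* rose against the fibroblasts by 5.37 log2 units (SE 0.89, adjusted p = 0.00172). The factor *Sox7*, also among the 18, exceeded the fibroblasts (1.725 and 2.315 FPKM) in library 3 alone, at 0, 0, 8.1 and 0.2982 FPKM in libraries 1 to 4. Of the 24 genes, 13 rose against the fibroblasts and 2 fell, *Pdgfra* and *Thbd*. Both were among the 18 and were high mainly in library 3, at 30.5 and 44.01 FPKM, against 4.461 and 3.499 in library 4. In the separately normalized table of XEN-like cells, 8 colonies had 266 to 1309 FPKM of *Sox17* and 188 to 464 of *Gata4*. For both genes libraries 3 and 4 lay nearer to those levels than libraries 1 and 2. The colonies had 21.19 to 109.6 FPKM of *Sox7*, above all 4 libraries. These comparisons have the limit that levels were not scaled between the tables.

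Genes of the basement membrane that XEN cells lay down lay on the same side as the factors. *Lama1*, a laminin chain, stood at 1.87 and 0.508 FPKM against 219 and 23.5, the largest separation on the side of libraries 3 and 4 among the genes named by rule (-5.14 log2 units). Its level in library 3 was within the 51.6 to 246 FPKM of the 8 XEN-like colonies and in library 4 below it. *Lamb1* was at 44.7 and 21.5 against 457 and 241, and *Col4a1*, of type IV collagen, at 114 and 60.9 against 1033 and 481. The fibroblasts also held 122 and 130 FPKM of *Lamb1* and 113 and 162 of *Col4a1*, and neither gene was called against them. *Lama1* reached at most 0.291 FPKM in the fibroblasts and was not called either. The 8 XEN-like colonies had 215 to 713 FPKM of *Lamb1* and 333 to 984 of *Col4a1*. The sialomucin *Podxl* was at 14.5 and 4.73 against 85.7 and 93.0, the coactivator *Cited1* at 29.5 and 3.65 against 106 and 127, and the hedgehog ligand *Ihh* at 18.2 and 5.31 against 96.3 and 112. *Plat*, the tissue plasminogen activator, was the exception with 98.2 and 457 FPKM against 33.6 and 17.5. *Rhox5*, a homeobox gene of extraembryonic cells, was not separated, with 727, 735, 560 and 812 FPKM, nor were the keratins *Krt8* (2392, 2006, 1840 and 3955) and *Krt18* (1914, 2340, 1416 and 3802).

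Of 12 pluripotency genes in the table only 7 passed the filter, and 5 of the 7 were higher in libraries 3 and 4, at low to moderate levels. The RNA-binding protein gene *Lin28a* stood at 0.356 and 0 FPKM against 17.1 and 19.1, *Sall4* at 2.30 and 1.82 against 17.9 and 10.9, and *Klf4* at 32.6 and 25.4 against 172 and 220. The fibroblasts held 39.7 and 16.8 FPKM of *Klf4*, but at most 0.749 of *Sall4* and 0.0274 of *Lin28a*. XEN-like colonies also express *Lin28a*, at 55.2 to 127 FPKM in their own table. *Plod2*, a collagen-modifying enzyme on no list, was at 9.56 and 11.5 against 210 and 292, *Sfrp5*, a Wnt antagonist, at 0 and 0 against 24.4 and 25.3, and the chloride transporter *Slc26a9* at 4.02 and 3.78 against 66.4 and 121.

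Cell cycle genes leaned to libraries 3 and 4, with 11 of 23 higher there and none in libraries 1 and 2, and a median difference of -1.56 log2 units. *Cenpa*, the histone of the centromere, stood at 4.03 and 3.57 FPKM against 48.7 and 22.2, and *Top2a*, which untangles DNA in dividing cells, at 7.99 and 3.38 against 45.8 and 16.0. Library 3 carried the highest values, with the 23 genes summing to 775 FPKM against 273, 206 and 267 in libraries 1, 2 and 4. The count depended on single libraries: it was 19 without library 1, 9 without library 2, 7 without library 3 and 19 without library 4. *Pcna* was not separated (83.4, 68.1, 93.3 and 40.2 FPKM). By limma 18 of the 23 were higher than in the hepatocytes, with 11 after median-ratio scaling and 8 without hepatocytes 1.

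Immediate early genes, which respond within minutes to growth factors or handling of cells, were higher in libraries 3 and 4 in 7 of 13 cases and in libraries 1 and 2 in 2. *Fos* stood at 48.9 and 46.5 FPKM against 559 and 203, *Fosb* at 0.828 and 2.44 against 103 and 22.2, and *Egr1* at 11.1 and 7.65 against 205 and 51.1. *Myc* was the reverse, at 49.0 and 56.3 against 20.5 and 25.3. Stress and unfolded protein genes were higher in libraries 1 and 2 in 8 of 18 cases and in libraries 3 and 4 in 2, and the first count ranged from 4 without library 2 to 12 without library 1. The stress cytokine *Gdf15* was at 27.3 and 34.9 FPKM against 4.50 and 1.31, while *Chac1*, a glutathione-degrading target of that response, was high only in library 2 (11.6, 75.8, 5.22 and 6.00). *Txnip*, induced by glucose, was at 332 and 33.2 FPKM against 454 and 592. The chaperone *Hspa5* was not separated (509, 1660, 392 and 1013 FPKM). Of 15 interferon response genes, 2 were higher in each pair. Whether handling, stress or proliferation of the cultures had a part in the separation was not tested.

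A family that neither liver nor endoderm markers had covered was the placental prolactin family on chromosome 13, hormones made by trophoblast giant cells and related cells. The list was put together after its values had been seen, so its counts support nothing. Of its 13 genes, 12 were higher in libraries 1 and 2, with a median difference of 4.34 log2 units, and their FPKM summed to 632 and 698 in libraries 1 and 2 and 18.8 and 14.6 in libraries 3 and 4. *Prl3d1*, placental lactogen I, stood at 32.7 and 50.1 FPKM against 0.153 and 0. *Prl2a1* was at 77.3 and 205 against 6.35 and 2.35, and *Prl7a1* at 17.1 and 56.3 against 0.823 and 0. *Prl2c3* and *Prl2c2*, of the proliferin group, were at 214 and 134 against 3.81 and 2.68, and at 149 and 121 against 3.29 and 1.96. The proliferins were also found in fibroblasts 1 (70.5 and 190 FPKM) but much less in fibroblasts 2 (2.43 and 3.45), and all 5 genes were listed at 0 in the hepatocytes. These genes are near copies of each other, and reads may have been split among them.

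The secreted protease inhibitor *Slpi* (167 and 136 FPKM against 5.15 and 1.98) was the other gene outside the liver lists among the 10 largest separations on that side. The lists of other cell types gave little on libraries 1 and 2. Of 21 macrophage and blood genes, 2 were higher there, both alpha globins, with *Hba-a1* at 216, 66.1, 4.00 and 3.08 FPKM while the beta globin *Hbb-bs* was listed at 0 in all 4. *Clec4f* and *C1qa* were at 0 in all 4, and *Stab2*, of liver endothelium, reached 0.344 FPKM in library 3 alone. In all 4 libraries 13 of the 21 macrophage and blood genes and 7 of the 14 endothelial genes lay below 1 FPKM. Other members were present: *Csf1r* stood at 26.5, 16.53, 17.39 and 31.15 FPKM in libraries 1 to 4 and *Cd68* at 25.38, 14.54, 6.489 and 35.97. The endothelial gene *Vwf* was at 23.9, 16.33, 20.16 and 16.45, and *Cdh5*, higher in libraries 3 and 4, at 2.027, 6.35, 15.68 and 9.399. The summed FPKM of the 14 endothelial genes ranged from 43.1 to 70.6, of the 11 stellate cell genes in the table from 49.6 to 113, and of the 15 neuronal genes in the table from 1.40 to 7.49, of which 9 and 7 passed the filter. The part of other cell types in the separation was not tested beyond these levels.

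The summed level of fibroblast genes was higher in library 3 than in the other 3 libraries, though not for every gene. All 28 genes on the list fell against the fibroblasts, and 23 did so on flow cell HH2TTALXX alone. Their FPKM summed to 268 and 186 in libraries 1 and 2 and to 740 and 175 in libraries 3 and 4, against 15873 and 18291 in the fibroblasts, and 9 were higher in libraries 3 and 4. *Vim*, an intermediate filament gene, made up much of library 3's sum (68.0, 24.7, 310 and 32.8 FPKM), and the matrix gene *Fn1* was no higher there than in library 1 (144, 66.7, 128 and 105). In library 3, 9 of the 28 lay below 1 FPKM, against 17 in library 4. *Bgn* was at 3.07 FPKM in library 3 and 11.4 in library 4. *Thy1* was listed at 0 in libraries 1, 2 and 4 and at 0.0609 FPKM in library 3. *Col1a1* was at 2.04, 0.320, 29.3 and 0.539 FPKM. *Lox*, which crosslinks collagen, stood at 0.975 and 0 against 28.0 and 7.12, with 939 and 1362 in the fibroblasts. Library 3 alone was high in contractile genes: the 10 genes summed to 57.3, 72.2, 431 and 71.1 FPKM, and *Myl9* was at 4.17, 0, 165 and 7.81.

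The libraries of a pair were themselves apart in single genes. In libraries 3 and 4 the largest such gaps included 3 genes of mesenchymal cells, *Acta2* (smooth muscle actin) at 116 and 0.818 FPKM, *Fbln2* at 96.0 and 1.08, and *Dcn* at 46.9 and 0.348. The splicing factor gene *Hnrnph1* was at 2412 and 85.9 FPKM, and the mast cell protease gene *Mcpt2* at 1.52 and 67.2. In libraries 1 and 2 the largest gaps were of *Zfp950* (682 and 4.21 FPKM), *Ece1* (6.56 and 930), the calcium channel gene *Cacna1a* (51.3 and 0), *Snurf* and *C1qtnf12* (0.295 and 28.7). *Snurf* shares its locus with *Snrpn*, and reads of such overlapping genes cannot be assigned with certainty. *Ece1* at 6.56 FPKM in library 1 stood against at least 179 in each of the other 9 libraries.

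Some genes were alike in the 4 libraries of flow cell HH2TTALXX, which holds 2 of the hepatocyte-like libraries and the fibroblasts. By a rule that asked for the lowest of the 4 libraries on HH2TTALXX to exceed 4 times the highest of the other 6 plus 1 FPKM, 12 genes were high on that flow cell, and 46 were low there by the reverse rule. The 46 were all among the genes higher in libraries 1 and 2, and 28 of them were on the lists of liver genes, among them *Cyp3a11*, *Cyp3a25*, *Trf*, *Mat1a*, *Tat* and *Pck1*. The reverse rule itself asks for hepatocyte levels above those of the fibroblasts, so that for the 46 flow cell and cell state cannot be told apart. Of the 12, *Gm43520*, an unnamed gene model, stood at 1966 and 2155 FPKM in libraries 3 and 4 and 2541 and 2568 in the fibroblasts and was listed at 0 in the other 6. *Snora73b*, a small nucleolar RNA, was at 41.5 and 181 FPKM in libraries 3 and 4, at 48.8 and 209 in the fibroblasts and at 0 in the other 6. The matrix genes *Sparc* (151, 77.9, 3196 and 930 FPKM, with 1917 and 1883 in the fibroblasts) and *Nid1* (7.39, 8.30, 192 and 78.2, with 421 and 134) also met the rule. For genes that both fibroblasts and XEN-like cells express, the same holds.

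Comparisons of the labelled groups with each pair taken alone gave a further description. Against the fibroblasts, limma called 2407 of 15657 genes higher and 2801 lower for libraries 1 and 2. For libraries 3 and 4, where both groups came from 1 flow cell, it called 1653 higher and 1659 lower. The fit of libraries 1 and 2 also drew its spread from the hepatocytes and tissue, and the fit of libraries 3 and 4 held these and the fibroblasts alone. The power of the 2 fits thus differs, and their counts do not measure a difference between the pairs. The 2 comparisons share their fibroblast libraries. Of the plasma protein genes 27 of 33 rose against the fibroblasts in libraries 1 and 2 and 21 in libraries 3 and 4. Of the extraembryonic endoderm genes 13 of 24 rose and 5 fell in libraries 1 and 2, against 16 and none. Because the pairs were chosen on liver gene values of these libraries, the list counts were fixed in part by that choice and support nothing. Against the hepatocytes the counts were 6312 higher and 1109 lower for libraries 1 and 2 and 6984 higher and 1170 lower for libraries 3 and 4. Scaling changed this comparison most: over all 4 libraries the 6468 higher and 1181 lower genes became 2561 and 2134 once libraries were scaled by median ratios, and the scaling took the median difference of all genes from 0.94 log2 units to 0.13.

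Genes lacking in all 4 libraries were as marked as those that set the pairs apart. The 5 largest decreases from the hepatocytes were of the major urinary protein genes *Mup9*, *Mup3* and *Mup10*, of *Serpina6*, the carrier of glucocorticoids, and of *Cyp2e1*. *Mup3* was listed at 0 in all 4, and *Mup9* and *Mup10* reached at most 0.202 and 0.155 FPKM, beside 2698 and 35410, and 1411 and 7867, in the hepatocytes. *Serpina6* was at 1.51 FPKM in library 4 and at 0 in the other 3, against 15954 and 561. The adjusted p of *Cyp2e1* was 1.08e-07, with both hepatocyte libraries at 1700 and 2582 FPKM and none of the 4 above 0. The urinary protein genes are near copies of each other, so the value of a single one is uncertain.

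**Figure D5:**
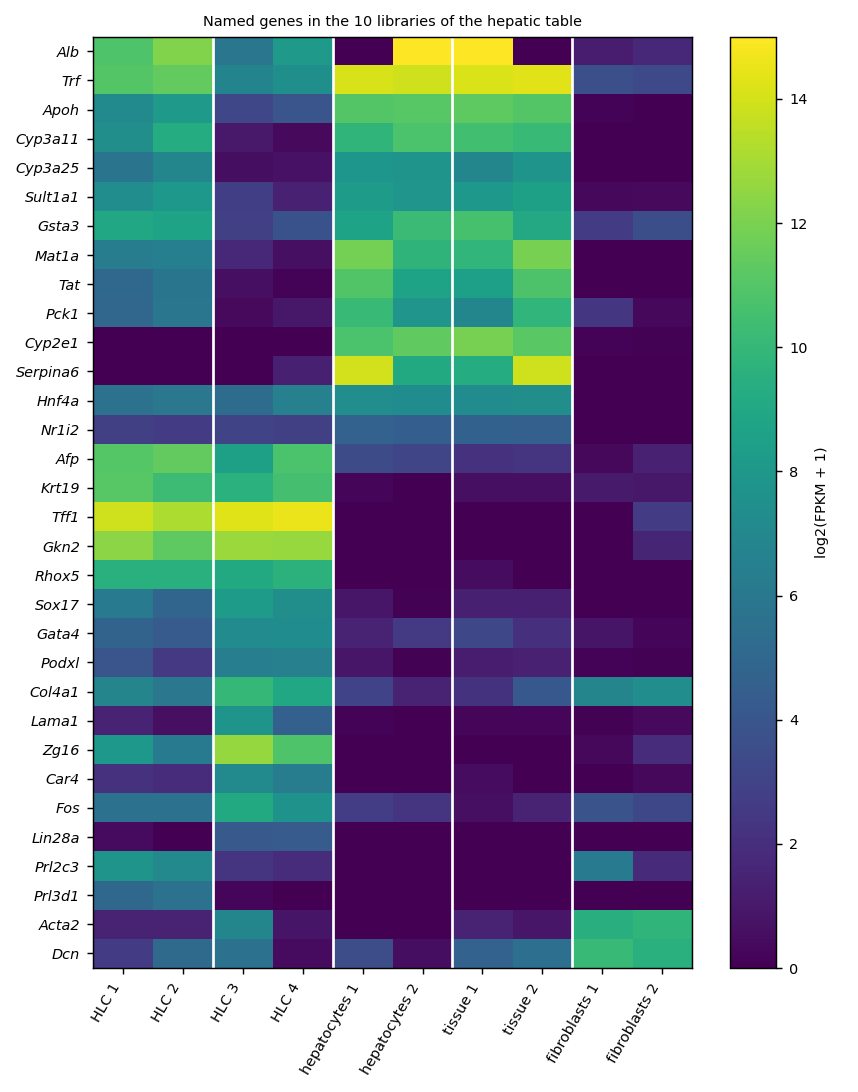
Level of 32 named genes in the 10 libraries of the hepatic table, as log2(FPKM + 1) by colour, with white lines between groups. *Cyp3a11*, *Mat1a*, *Tat* and *Pck1* are bright in libraries 1 and 2 and dark in 3 and 4, *Lama1* and *Lin28a* are the reverse, and *Cyp2e1* is dark in all 4.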

How the data were processed

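The 10 libraries of the hepatic table were used. Its values, deposited by the authors, were judged to be FPKM from the values themselves, which were not whole numbers and had unequal sums. The submitters' processing notes name TopHat2 and the build mm10; the version, the counting tool and the annotation are not given in the sources used here. The library kit does not mark strand, so reads of overlapping or antisense genes cannot be told apart.

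Values were taken as log2(FPKM + 1), which understates changes of low genes, and genes were kept at 1 FPKM in at least 2 of the 10 libraries. The labelled groups were compared with limma 3.58.1 in R 4.3.3 (empirical Bayes with trend, two-sided, Benjamini-Hochberg adjustment over all genes kept, with calls made at an adjusted p below 0.05 for differences of 1 log2 unit or more), after the fit had been tested on simulated data. Hepatocyte-like cells were compared in 1 model of all 10 libraries, hepatocytes and fibroblasts in a model without the hepatocyte-like libraries. The pairs of hepatocyte-like libraries were described by differences of their means, with no test. The members and gene lists were chosen with earlier results of these data known. Genes were named by a rule: *Alb* and *Cyp3a11*; the 10 largest separations in each direction with at least 10 FPKM in the higher pair; up to 4 separated members of each list and members not separated; the 5 largest differences from the hepatocytes in each direction and the 5 largest within each pair. Which of these were printed, and a few further genes given for context (among them *Apoh*, *Serpina3k*, *Xist*, *Ddx3y* and *Sparc*), were chosen after their values had been seen. A few list members are counted but not reported here by name. Alternatives were another pseudocount (0.1), no filter, median-ratio scaling, leaving out each library and fits on fewer libraries. Promoters came from the RefSeq table of GRCm38.p6.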

Additional observations from a re-analysis of the deposited data

Results flagged for a closer look

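Among 152 values examined over the 4 hepatocyte-like libraries, 3 had a library that stood far from the other 3, by a rule that sets its gap to the nearest library against the range of the 4 (Dixon's test ratio at its 95% critical value). Chance flags about 1 in 20 such groups. *Cldn4*, a tight junction gene, was lowest in library 3, at 333.7 FPKM against 935 to 1083. The summed FPKM of the 10 smooth muscle contractile genes was highest in library 3, at 430.6 against 57.3 to 72.2. The summed FPKM of the 15 interferon response genes was lowest in library 3, at 603.1 against 1220 to 1384. The causes were not tested.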

How the results depend on the processing

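The split gave 271 genes higher in libraries 1 and 2 and 391 higher in libraries 3 and 4 at a log2 difference of at least 2. Leaving out each library in turn gave 1264 to 1918 and 1767 to 2573 genes, with the highest of both without library 1; fewer libraries then have to be kept apart. Median-ratio scaling gave 2561 higher and 2134 lower genes for hepatocyte-like cells against hepatocytes, and 1887 higher and 3582 lower for hepatocytes against fibroblasts, and set the position of library 2 to 0.230. Libraries 1 and 2 lay above libraries 3 and 4 in position under every alternative run, but this order was fixed in part by the choice of the pairs and is no support. Leaving out each library in turn gave 4296 (without hepatocytes 1) to 6771 higher and 1028 to 1177 lower genes against the hepatocytes. Against the fibroblasts it gave 866 to 1955 higher (891 without fibroblasts 1 and 866 without fibroblasts 2) and 1575 to 2510 lower. For hepatocytes against fibroblasts it gave 694 to 1051 higher (727 and 694 without fibroblasts 1 and 2) and 4533 to 5703 lower. A lone library left in a group is assumed to vary like the other groups. Of 121 named genes, the difference between the pairs moved by more than the spread within pairs for 27 with a pseudocount of 0.1 and 8 with scaling. No paired analysis was possible because the labels give no replicate numbers. The higher lowest values of libraries 1 and 2 and the 2 unlike hepatocyte libraries limit what small differences can show.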
